A study of Homo sapiens with 6 samples.

Results

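Respiratory complex I, the NADH dehydrogenase of the mitochondrial inner membrane, is described here through 50 of the 20263 genes measured in HCT116 cells. The 50 genes were taken as a fixed list by symbol: 36 nuclear genes of complex I subunits, 7 nuclear genes of assembly factors named NDUFAF, and the 7 subunit genes of mitochondrial DNA, named MT-ND. The nuclear subunits comprise 13 NDUFA genes (NDUFAB1 included), 11 NDUFB genes and 12 genes of the NDUFS, NDUFV and NDUFC series. All 50 had a line in the expression table and all 50 passed the filter on low values, so none was left untested. HCT116 is an established human colorectal cancer cell line. The groups were 3 wild-type samples (WT), which carry no treatment in the labels, and 3 samples treated with CSE, which the labels leave unexplained and which is read here as cigarette smoke extract because the series title concerns smoking. How much CSE was given, for how long, and against which vehicle is not stated in the labels. Separate cultures are not mentioned for the replicates either, and the p-values below therefore reflect the scatter of these 6 samples alone, which could be technical.

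Complex I takes electrons from NADH, passes them along iron-sulphur clusters to ubiquinone, and uses the energy released to pump protons out of the mitochondrial matrix. It has a matrix arm, where NADH is bound and electrons travel, and a membrane arm, whose proton-pumping core is made of the proteins that mitochondrial DNA encodes. Around this core sit accessory subunits that do not carry out the reaction but are needed to build or hold the complex, and assembly factors that leave once it is finished. Colorectal cancer cells in culture draw ATP from both glycolysis and respiration, and the nuclear and mitochondrial gene sets of the complex are transcribed by different polymerases in different compartments.

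Values are TPM, each transcript's length-corrected share of its library, so levels may be compared between genes while the sequencing depth is unknown. Differences are log2 fold changes, CSE minus WT, of TPM + 1 from limma, with p-values adjusted by the Benjamini-Hochberg method over 12793 genes. A gene is said to have risen or fallen where the adjusted p was under 0.05. Over all genes tested 50.1% passed (24.5% higher in CSE and 25.6% lower), so a count of members is read against those shares. The share of TPM on mitochondrially encoded genes was 27.0%, 28.6% and 30.2% in WT replicates 1, 2 and 3, and 25.5% to 25.8% in the CSE samples. Because every library sums to the same total, a smaller mitochondrial share raises all other values, and each result is therefore also given after dividing by the sum over the genes that are not mitochondrially encoded (called rescaled below). Rescaling moved the median log2 fold change of all genes from -0.0039 to -0.0586, and the share of calls that were higher in CSE from 48.9% to 34.2%. CSE replicate 3 stood somewhat apart: its log2 differences from the other CSE samples had an SD of 0.126 and 0.131 across genes, against 0.0929 between CSE replicates 1 and 2. The epithelial markers EPCAM, KRT8, KRT18, KRT19, CDH1 and CDX2 summed to between 5081 and 5314 TPM in WT and between 5307 and 5613 in CSE. Of the fibroblast, leukocyte and endothelial markers checked, 13 of 15 were below 1 TPM in every sample, the exceptions being COL1A1 and CD68. Both of these were lower in CSE, COL1A1 at 43.8 ± 1.15 TPM in WT and 37.3 ± 0.284 in CSE and CD68 at 17.6 ± 0.397 and 12.1 ± 0.509 (SD, n = 3). Of the epithelial markers KRT18 fell by 0.25 on the log2 scale, while KRT19, EPCAM and CDX2 rose by 0.34, 0.12 and 0.18 (the last pair lost the call when rescaled). The part of these markers in the results below was not tested. In bulk RNA, fewer cells of a kind and less RNA per cell cannot be told apart.

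Across the complex, nuclear subunit transcripts were mostly higher in CSE and MT-ND transcripts mostly lower (though 2 of 7 were called higher under quantile normalization), with changes of at most 1.34-fold. Among the 36 nuclear subunit genes there were 20 rises (55.6%), 1 fall and 15 genes that did not pass, and the median log2 fold change was 0.17 beside -0.0039 for all genes. Rescaled, 17 rose and 2 fell, with a median of 0.12 beside -0.0586, where 18.3% of all genes were higher and 35.2% lower. Of the MT-ND genes none rose, while 3 of the 7 fell (42.9%, beside 25.6% of all genes) and the others did not pass. The MT-ND median was -0.08, and rescaled 5 fell with a median of -0.14. At an unadjusted p under 0.05 limma also found 0 MT-ND genes higher, and 0 NDUFA and 0 NDUFB genes lower, on TPM as deposited. Rescaled, these counts were 0, 1 and 0. The CSE values of 21 nuclear subunits lay above all 3 WT values and those of 1 lay below, where 27.5% and 29.9% of all genes did so (57.4% in either direction). Rescaled, 17 lay above and 3 below, where 20.6% and 40.3% of all genes did (60.9% in either direction). Only 7 of the members called changed by a ratio of mean TPM of at least 1.2. The plot of fold changes by module shows the members one by one.

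**Figure D1:**
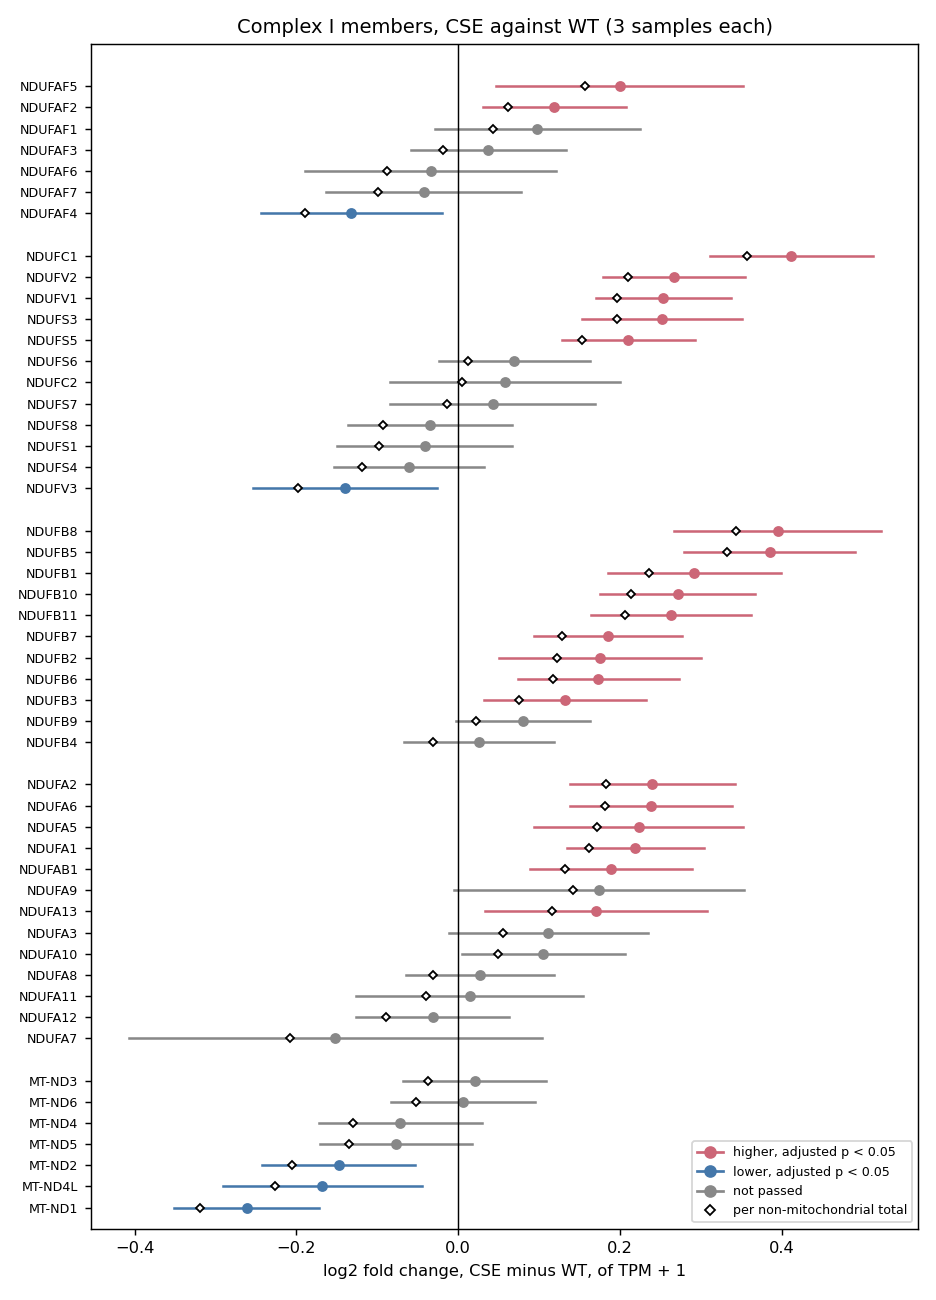
Log2 fold change of TPM + 1, CSE minus WT, for each of the 50 complex I genes, ordered within module; filled points with bars are the limma estimate and its 95% interval from 3 samples a group, coloured by call, and open diamonds are the estimate after rescaling without mitochondrially encoded genes. Most nuclear subunits lie to the right of 0 (NDUFC1 highest at 0.41), MT-ND1 lies lowest at -0.26, and every diamond lies to the left of its point.

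The mitochondrial members are described first. Their genes sit on the 2 strands of a small circular genome and are cut from long precursor RNAs that also carry the subunits of other complexes. Several of them end without a complete stop codon, which polyadenylation of the RNA completes, and MT-ND4L and MT-ND4 share an overlap and are held to stay together on 1 messenger RNA. These features are printed because the measured levels of the 7 genes rest on short, adjoining or overlapping stretches. In the GENCODE 29 transcripts on GRCh38, the stretch where MT-ND4L runs into MT-ND4 (chrM:10739-10787, plus strand) has the 7 shared bases in capitals:
MT-ND4L to MT-ND4: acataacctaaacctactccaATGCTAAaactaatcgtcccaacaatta
The last 24 bases of each gene follow, 5′ to 3′ on the transcribed sense, with the bases of the final complete or incomplete stop codon in capitals. MT-ND6 lies on the minus strand and the others on the plus strand.
MT-ND1 (chrM:4239-4262): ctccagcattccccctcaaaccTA
MT-ND2 (chrM:5488-5511): ccccttttatactaataatcttaT
MT-ND3 (chrM:10381-10404): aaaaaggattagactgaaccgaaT
MT-ND4 (chrM:12114-12137): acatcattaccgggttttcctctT
MT-ND4L (chrM:10743-10766): aacctaaacctactccaatgcTAA
MT-ND5 (chrM:14125-14148): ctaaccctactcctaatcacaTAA
MT-ND6 (chrM:14149-14172): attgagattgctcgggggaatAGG
The 4 genes with an incomplete codon are 956, 1042, 346 and 1378 bases long (MT-ND1, MT-ND2, MT-ND3 and MT-ND4), each leaving 1 or 2 bases beyond whole codons. MT-ND4L (297 bases), MT-ND5 (1812 bases) and MT-ND6 (525 bases) end in a whole codon.

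MT-ND1 (ENSG00000198888, chrM:3307-4262) fell more than any other of the 50 genes. It encodes the membrane-arm subunit at the mouth of the ubiquinone channel. Its levels were 10045, 10447 and 10919 TPM in the WT samples and 8901, 8849 and 8449 TPM in the CSE samples. All 3 CSE values were below all 3 WT values. The log2 fold change was -0.26 (SE 0.0432, limma adjusted p = 3.56e-05), from a mean of 10470 ± 437 to 8733 ± 247 TPM (SD, n = 3), and rescaled it was -0.32. MT-ND1 was the only MT-ND gene whose call held under all 15 alternative settings tried.

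MT-ND2 (chrM:4470-5511), one of the antiporter-like proton-pumping subunits, follows MT-ND1 on the genome with tRNA genes between. It stood at 8008, 8637 and 9094 TPM in WT and at 7579, 7914 and 7709 TPM in CSE. The groups did not overlap, but the gap between WT replicate 1 and CSE replicate 2 was small. MT-ND2 fell by 0.15 on the log2 scale (SE 0.0456, limma adjusted p = 0.0101), and without WT replicate 3 the fall was 0.11 with an adjusted p of 0.0718. Rescaled, the log2 fold change was -0.21.

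MT-ND4L (ENSG00000212907, chrM:10470-10766), a small membrane subunit near the quinone site, fell from 22421, 23515 and 24761 TPM in WT to 22283, 22232 and 18579 TPM in CSE. All CSE values were lower, but CSE replicates 1 and 2 lay just under WT replicate 1 and only CSE replicate 3 was far below. The log2 fold change was -0.17 (SE 0.0591, limma adjusted p = 0.0222), and without CSE replicate 3 it was -0.08 with an adjusted p of 0.142. The same call was lost without WT replicate 3 (-0.13, adjusted p = 0.114) and without WT replicate 2 (-0.17, adjusted p = 0.0562). MT-ND4, which shares the 7 bases printed above, did not show the low value of CSE replicate 3. MT-ND4, an antiporter-like pump subunit, stood at 24542, 25702 and 27790 TPM in WT and at 24428, 24886 and 24845 TPM in CSE, which overlapped. Its log2 fold change was -0.07 (limma adjusted p = 0.228), and -0.13 with an adjusted p of 0.0484 when rescaled.

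MT-ND5, the antiporter-like subunit at the far tip of the membrane arm, had 9276, 9597 and 9943 TPM in WT and 9449, 9316 and 8560 TPM in CSE. The groups overlapped, with CSE replicate 3 the lowest of the 6. MT-ND5 differed by -0.08 on the log2 scale (limma adjusted p = 0.162), by -0.14 (adjusted p = 0.0262) rescaled and by 0.06 (adjusted p = 0.0248) under quantile normalization. MT-ND3, a small subunit with a loop near the quinone site, had 10790, 11440 and 10894 TPM in WT and 11445, 10858 and 11289 TPM in CSE. The samples of the 2 groups were interleaved, and the log2 fold change of 0.02 (limma adjusted p = 0.712) turned to -0.04 when rescaled.

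MT-ND6 (ENSG00000198695, chrM:14149-14673) is the only protein gene on the light strand of human mitochondrial DNA, and its RNA is held to lack the long poly(A) tail of the others. Its levels were 8238, 8606 and 8990 TPM in WT and 8573, 8472 and 8882 TPM in CSE. The groups overlapped throughout. The log2 fold change was 0.01 (95% interval -0.08 to 0.09, limma adjusted p = 0.921), turning to -0.05 when rescaled and becoming a call of 0.11 (adjusted p = 0.0477) under quantile normalization. Whether the counting used strand is not stated, so MT-ND6 reads and antisense reads from the same stretch cannot be told apart.

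**Figure D2:**
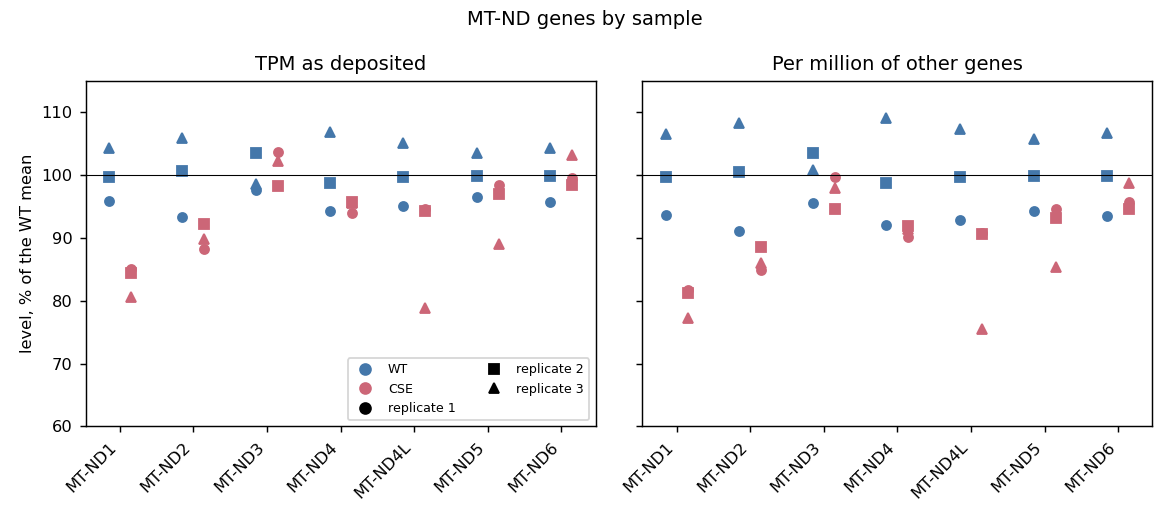
Level of each MT-ND gene in each sample as a percentage of its WT mean, from TPM as deposited (left) and relative to the summed TPM of the genes that are not mitochondrially encoded (right); colours mark WT and CSE and symbols the replicate. MT-ND1 is the gene whose CSE samples lie farthest below WT in both panels, and the low MT-ND4L point is CSE replicate 3.

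Within each library the 7 genes can be compared without any scaling between libraries. MT-ND1 made up 10.8%, 10.7% and 10.7% of the summed MT-ND TPM in WT and 9.61%, 9.56% and 9.57% in CSE. The samples of each group were close together and the groups well apart. The share of MT-ND6 was 8.78% to 8.83% in WT and 9.16% to 10.1% in CSE, and that of MT-ND3 10.6% to 11.7% against 11.7% to 12.8%, both without overlap, the latter by a narrow margin. The shares of MT-ND2, MT-ND4, MT-ND4L and MT-ND5 overlapped between the groups. In WT the order of levels was MT-ND4, MT-ND4L, MT-ND3, MT-ND1, MT-ND5, MT-ND6 and MT-ND2, with overlap between the first pair, between MT-ND3 and MT-ND1, and between MT-ND6 and MT-ND2. In CSE MT-ND5 preceded MT-ND1 and MT-ND6, with overlap from MT-ND5 to MT-ND1 and from MT-ND1 to MT-ND6, while MT-ND4 lay above MT-ND4L and MT-ND6 above MT-ND2 without overlap.

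Of the 6 other mitochondrially encoded genes in the table, which encode subunits of complexes III, IV and V, none rose and 4 fell, where 25.6% of all genes fell. The median log2 fold change of the 6 was -0.15 (rescaled, 5 fell and the median was -0.21). The lowest was MT-CO1, the catalytic subunit of cytochrome oxidase, from 44293 ± 2418 to 33211 ± 365 TPM (SD, n = 3) and by 0.41 on the log2 scale (limma adjusted p = 4.63e-07). MT-CYB, MT-CO3 and MT-ATP8 each fell by 0.15. The MT-ND genes made up 33.9% to 34.6% of the mitochondrially encoded TPM in WT and 34.6% to 35.9% in CSE, a narrow gap without overlap.

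In the matrix arm, 6 members of the list form the conserved electron-carrying core that is encoded in the nucleus: NDUFV1, NDUFV2, NDUFS1, NDUFS3, NDUFS7 and NDUFS8. Of these, 3 rose, none fell and 3 did not pass, on both scales. Of all genes 24.5% rose and 25.6% fell, and rescaled 18.3% rose and 35.2% fell. In either direction 50.1% of all genes passed (53.5% rescaled), so as many as 3 calls among 6 genes is not unusual in these data. NDUFV1 carries the flavin that accepts electrons from NADH. Its levels were 168, 162 and 159 TPM in WT and 191, 189 and 203 TPM in CSE. The CSE samples were all above the WT samples, with a log2 fold change of 0.25 (SE 0.0404, limma adjusted p = 2.26e-05, rescaled 0.20). NDUFV2, its iron-sulphur partner, had 90.5, 96.1 and 91.1 TPM in WT and 108, 110 and 116 TPM in CSE. Again no sample overlapped, and the log2 fold change was 0.27 (SE 0.0423, limma adjusted p = 2.07e-05, rescaled 0.21). NDUFS3 (ENSG00000213619), a scaffold subunit of the quinone-binding module, had 46.0, 42.0 and 45.1 TPM in WT and 54.0, 50.7 and 54.3 TPM in CSE. It rose by 0.25 (SE 0.0477, limma adjusted p = 0.000164, rescaled 0.20). The annotation of NDUFS3 overlaps PTPMT1 on the same strand over 8032 bases, and PTPMT1 had mean levels of 36.1 TPM in WT and 39.5 TPM in CSE.

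The other 3 core members carry iron-sulphur clusters and showed no call. NDUFS1, the largest subunit of the complex, had 24.3 to 24.8 TPM in WT and 22.4 to 24.8 TPM in CSE, with a log2 fold change of -0.04 (95% interval -0.15 to 0.07). NDUFS7 had 23.8 to 26.2 TPM in WT and 23.8 to 28.3 TPM in CSE, with a log2 fold change of 0.04 that turned to -0.01 when rescaled. NDUFS8 had 78.4 to 89.3 TPM in WT and 77.0 to 84.6 TPM in CSE, with a log2 fold change of -0.04 (95% interval -0.14 to 0.07). Rescaled it was -0.09 (limma adjusted p = 0.0917).

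Among the accessory subunits of the NDUFS, NDUFV and NDUFC series, NDUFC1 had the largest rise of the 50 genes. NDUFC1 (ENSG00000109390, chr4:139266880-139302551, minus strand) encodes a small single-pass protein of the membrane arm. Its levels were 42.5, 40.1 and 38.1 TPM in WT and 54.5, 51.8 and 55.2 TPM in CSE. The lowest CSE sample was well above the highest WT sample. The mean went from 40.2 ± 2.20 to 53.8 ± 1.82 TPM (SD, n = 3), a 1.34-fold difference with a log2 fold change of 0.41 (SE 0.0484, limma adjusted p = 4.21e-07, rescaled 0.36). The gene overlaps NAA15 on the opposite strand over 1097 bases, and NAA15 had 40.1 TPM in WT and 32.6 TPM in CSE. NDUFC2, its partner in the complex, had 9.05 to 10.02 TPM in WT and 9.29 to 10.95 TPM in CSE, with overlap and a log2 fold change of 0.06 (limma adjusted p = 0.506).

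NDUFS5 (ENSG00000168653, chr1:39026318-39034636, plus strand), an accessory subunit on the intermembrane-space face, had the highest level of the nuclear members. It stood at 427, 414 and 400 TPM in WT and at 477, 460 and 499 TPM in CSE. The groups did not overlap, and the log2 fold change was 0.21 (SE 0.0395, limma adjusted p = 0.000149, rescaled 0.15). NDUFV3 (ENSG00000160194), a small accessory subunit beside NDUFV1 and NDUFV2, was the one nuclear subunit that fell. Its levels were 21.6, 21.1 and 19.5 TPM in WT and 18.3, 19.0 and 18.7 TPM in CSE. The gap between WT replicate 3 and CSE replicate 2 was narrow. The log2 fold change was -0.14 (SE 0.0546, limma adjusted p = 0.0372, rescaled -0.20), and the adjusted p was 0.147 without WT replicate 1, 0.126 without WT replicate 2 and 0.125 without CSE replicate 1. NDUFS4, a late-added matrix-arm subunit whose loss in humans causes Leigh syndrome, had 125, 124 and 112 TPM in WT and 116, 111 and 119 TPM in CSE. The groups overlapped, with a log2 fold change of -0.06 (limma adjusted p = 0.269) that became a call when rescaled (-0.12, adjusted p = 0.0160) or without WT replicate 3 (-0.11, adjusted p = 0.0491). NDUFS6 had 71.6 to 78.5 TPM in WT and 75.1 to 80.6 TPM in CSE, and did not pass on either scale. Counted over the 12 genes of the series there were 5 rises (41.7%, beside 24.5% of all genes), 1 fall and 6 genes without a call. The median log2 fold change of the 12 was 0.06 (rescaled 5 rises, 2 falls and 0.01).

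The 11 NDUFB genes encode accessory subunits of the membrane arm, and 9 of them rose (81.8%, beside 24.5% of all genes), none fell and 2 did not pass. Their median log2 fold change was 0.19. Rescaled, 7 rose and the median was 0.13. NDUFB8 (ENSG00000166136, chr10:100523740-100530000, minus strand), a subunit of the distal membrane arm that is often used as an immunoblot marker of assembled complex I, had 19.4, 21.3 and 19.0 TPM in WT. In CSE NDUFB8 had 25.3, 24.9 and 29.3 TPM. The CSE samples were all higher, CSE replicate 3 most of all. NDUFB8 rose by 0.39 on the log2 scale (SE 0.0615, limma adjusted p = 1.73e-05, rescaled 0.34). The gene shares 929 bases with HIF1AN on the opposite strand, which had 41.3 TPM in WT and 34.5 TPM in CSE.

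NDUFB5 (ENSG00000136521, chr3:179604690-179627647, plus strand), another distal membrane-arm subunit, had 20.4, 20.8 and 20.9 TPM in WT and 26.6, 26.9 and 28.6 TPM in CSE. The 3 WT samples lay within 1 TPM of each other and far below the CSE samples. NDUFB5 rose by 0.38 (SE 0.0507, limma adjusted p = 2.01e-06, rescaled 0.33). NDUFB1, a short single-pass subunit, had 51.3, 46.7 and 44.9 TPM in WT and 55.6, 58.2 and 61.7 TPM in CSE. NDUFB1 rose by 0.29 (SE 0.0518, limma adjusted p = 7.91e-05, rescaled 0.24), again with no overlap.

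The smallest rises of the series were those of NDUFB3, NDUFB6 and NDUFB2. NDUFB3, a membrane-arm subunit, had 53.5, 53.7 and 50.8 TPM in WT and 57.9, 54.3 and 61.4 TPM in CSE, with a log2 fold change of 0.13 (limma adjusted p = 0.0274). NDUFB2 had 17.0, 17.2 and 15.1 TPM in WT and 17.9, 18.5 and 19.7 TPM in CSE, with a log2 fold change of 0.18 (limma adjusted p = 0.0190). Both were without overlap between the groups, and both calls were lost when rescaled (0.08 for NDUFB3 and 0.12 for NDUFB2). The NDUFB2 call was also lost without WT replicate 3 (adjusted p = 0.134) or CSE replicate 3 (0.0582), and for NDUFB3 the adjusted p was 0.115 without WT replicate 3, 0.0599 without CSE replicate 1 and 0.0982 without CSE replicate 3. NDUFB6 had 71.7, 67.3 and 63.1 TPM in WT and 77.0, 72.8 and 78.4 TPM in CSE. NDUFB6 kept its call under rescaling, with a log2 fold change of 0.17 as deposited (limma adjusted p = 0.00482) and 0.12 rescaled. The other NDUFB genes that rose, NDUFB7, NDUFB10 and NDUFB11, had log2 fold changes of 0.19, 0.27 and 0.26. NDUFB7 had 173 to 187 TPM in WT and 193 to 217 TPM in CSE, NDUFB10 had 179 to 209 and 229 to 238 TPM, and NDUFB11 had 74.7 to 82.5 and 88.1 to 98.5 TPM. None of the 3 had overlap between the groups. NDUFB11 shares 636 bases with RBM10 on the opposite strand, which had 40.1 TPM in WT and 54.3 TPM in CSE. Whether reads of this stretch entered the NDUFB11 values was not tested. NDUFB9, a member of the LYR family that docks acyl carrier protein and the highest of the series by WT mean (NDUFB10 was higher in CSE), had 194 to 205 TPM in WT and 205 to 221 TPM in CSE. Its log2 fold change of 0.08 did not pass (limma adjusted p = 0.103), nor did that of NDUFB4 (0.03, turning to -0.03 when rescaled).

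The 13 NDUFA genes encode accessory subunits of both arms, and 6 of them rose (46.2%, beside 24.5% of all genes), none fell and 7 did not pass. The median log2 fold change was 0.17, and rescaled 5 rose with a median of 0.12. NDUFA6, the LYR-family subunit of the matrix arm, had 69.6, 70.0 and 61.6 TPM in WT and 76.9, 80.6 and 80.0 TPM in CSE. NDUFA2, a matrix-arm subunit with a thioredoxin-like fold, had 98.6, 91.2 and 86.8 TPM in WT and 106, 105 and 117 TPM in CSE. Neither gene had overlap between the groups, and each rose by 0.24 on the log2 scale (limma adjusted p = 0.000313 for NDUFA6 and 0.000372 for NDUFA2, both 0.18 rescaled). NDUFA5, of the quinone-binding module, had 15.3, 14.9 and 12.9 TPM in WT and 16.5, 16.7 and 17.5 TPM in CSE. It rose by 0.22 (limma adjusted p = 0.00511, rescaled 0.17), and without WT replicate 3, its lowest sample, the adjusted p was 0.0520.

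NDUFA1, a membrane-arm subunit encoded on the X chromosome, had 132 to 139 TPM in WT and 154 to 167 TPM in CSE, with a log2 fold change of 0.22 (limma adjusted p = 0.000141, rescaled 0.16). NDUFAB1 is the mitochondrial acyl carrier protein, which serves fatty acid synthesis and iron-sulphur cluster assembly as well as complex I. It had 86.7 to 94.9 TPM in WT and 97.3 to 111 TPM in CSE, with a log2 fold change of 0.19 (limma adjusted p = 0.00266, rescaled 0.13). The groups of these 2 genes did not overlap.

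NDUFA13 (ENSG00000186010, chr19:19515736-19529054, plus strand), also known as GRIM-19, is a transmembrane subunit described in other work as a binding partner of STAT3, a factor named in the series title. Its levels were 24.7, 26.4 and 21.7 TPM in WT and 27.7, 24.8 and 29.6 TPM in CSE. CSE replicate 2 lay inside the WT range, so the groups overlapped although the gene passed with limma at an adjusted p of 0.0374 (log2 fold change 0.17, SE 0.0663). The call was kept in 4 of 15 alternatives, where the adjusted p ranged from 0.00247 to 0.266. Leaving out WT replicate 1 gave 0.0841, WT replicate 3 gave 0.266, CSE replicate 1 gave 0.0509 and CSE replicate 3 gave 0.194. Rescaled, the log2 fold change was 0.12 (adjusted p = 0.165). NDUFA13 overlaps an unnamed gene model (ENSG00000258674) over 12828 bases of the same strand, which had 3.23 TPM in WT and 2.67 TPM in CSE. It also shares 194 bases of that strand with YJEFN3, which at 31.2 TPM in WT and 28.2 TPM in CSE was listed above the NDUFA13 means of 24.3 and 27.4 TPM.

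Of the 7 NDUFA genes that did not pass, NDUFA8 had the highest level of the series (153 to 164 TPM in WT and 154 to 173 TPM in CSE). Its log2 fold change of 0.03 turned to -0.03 when rescaled. NDUFA7, the lowest of all 50 genes, had 2.09, 2.25 and 1.34 TPM in WT and 1.17, 1.81 and 1.81 TPM in CSE. Its log2 fold change was -0.15 with an interval from -0.41 to 0.10. NDUFA9 was also low, with 2.38 to 2.77 TPM in WT and 2.79 to 3.15 TPM in CSE, and its log2 fold change of 0.17 did not pass (limma adjusted p = 0.0986) although the groups did not overlap. NDUFA3, NDUFA10, NDUFA11 and NDUFA12 had log2 fold changes of 0.11, 0.11, 0.01 and -0.03, of which that of NDUFA11 turned to -0.04 when rescaled. Without WT replicate 1, NDUFA3 (0.20, limma adjusted p = 0.00647) and NDUFA10 (0.15, 0.0163) passed.

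**Figure D3:**
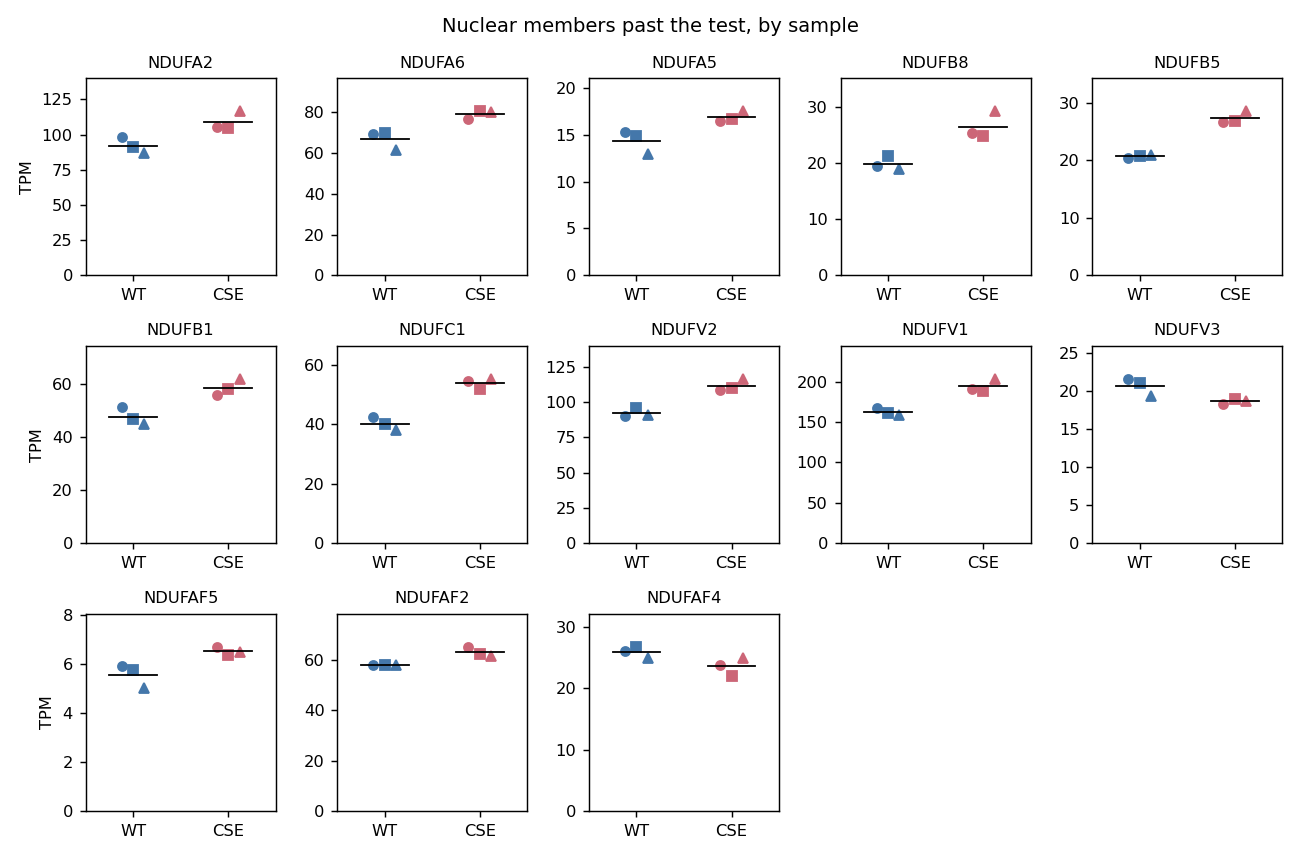
TPM in each of the 6 samples for 13 nuclear members that passed the test, namely up to 3 with the largest rise and those that fell in each series; symbols mark the replicate, black lines the group mean, and each axis starts at 0. NDUFC1, NDUFB8 and NDUFB5 show the widest gaps between the groups, while NDUFV3 and NDUFAF4 show CSE just below WT.

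The 7 NDUFAF genes encode factors that help to build the complex and are absent from its finished form. Of these, 2 rose (28.6%), 1 fell (14.3%) and 4 did not pass, where 24.5% of all genes rose and 25.6% fell. Rescaled, none rose (1 at an unadjusted p under 0.05 from limma) and 1 fell, where 18.3% of all genes rose and 35.2% fell. NDUFAF2, a chaperone of the matrix arm, had 58.1, 58.0 and 58.0 TPM in WT and 65.3, 62.5 and 61.5 TPM in CSE. NDUFAF5, which modifies NDUFS7 during assembly, had 5.90, 5.75 and 5.01 TPM in WT and 6.70, 6.36 and 6.48 TPM in CSE. In both genes the CSE samples were all higher, with log2 fold changes of 0.12 (limma adjusted p = 0.0245) and 0.20 (0.0281). Both calls were lost when rescaled (0.06 and 0.16). Both were also lost without WT replicate 3 (adjusted p = 0.0504 and 0.158) and without CSE replicate 1 (0.168 and 0.0914), and that of NDUFAF2 without WT replicate 2 (0.0772).

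NDUFAF4 (ENSG00000123545), which acts with NDUFAF3 on the quinone-binding module, had 26.1, 26.8 and 25.0 TPM in WT and 23.9, 22.0 and 24.9 TPM in CSE. CSE replicate 3 lay barely below WT replicate 3. NDUFAF4 fell by 0.13 (SE 0.0542, limma adjusted p = 0.0473, with a rescaled log2 fold change of -0.19), and the call was kept in 6 of 15 alternatives. Leaving out WT replicate 1 gave an adjusted p of 0.111, WT replicate 2 gave 0.178, CSE replicate 1 gave 0.0738 and CSE replicate 2 gave 0.258. NDUFAF3 itself had a log2 fold change of 0.04 that turned to -0.02 when rescaled. NDUFAF1, NDUFAF6 and NDUFAF7 had log2 fold changes of 0.10, -0.03 and -0.04 and did not pass on either scale.

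The sums per sample give the balance of the 2 genomes. The 36 nuclear subunits summed to 2929, 2810 and 2705 TPM in WT and to 3133, 3054 and 3291 TPM in CSE. All CSE sums were higher, 1.12-fold on average (1.08-fold rescaled, again without overlap). The MT-ND genes summed to 93320, 97943 and 102390 TPM in WT and to 92657, 92527 and 88313 TPM in CSE. WT replicate 1 was only slightly above the first CSE samples, and the CSE mean was 0.931 of the WT mean (0.894 rescaled). The ratio of the sums, which no scaling between libraries changes, was 31.9, 34.9 and 37.8 in WT and 29.6, 30.3 and 26.8 in CSE. The CSE mean of this ratio was 0.829 of the WT mean, and between 0.795 and 0.866 with any 1 sample left out. An exact permutation test of 3 against 3 samples cannot give a two-sided p below 0.10, and none was run on the sums. The gap in this ratio between WT replicates 1 and 3 was wider than the gap between WT replicate 1 and the highest CSE sample.

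**Figure D4:**
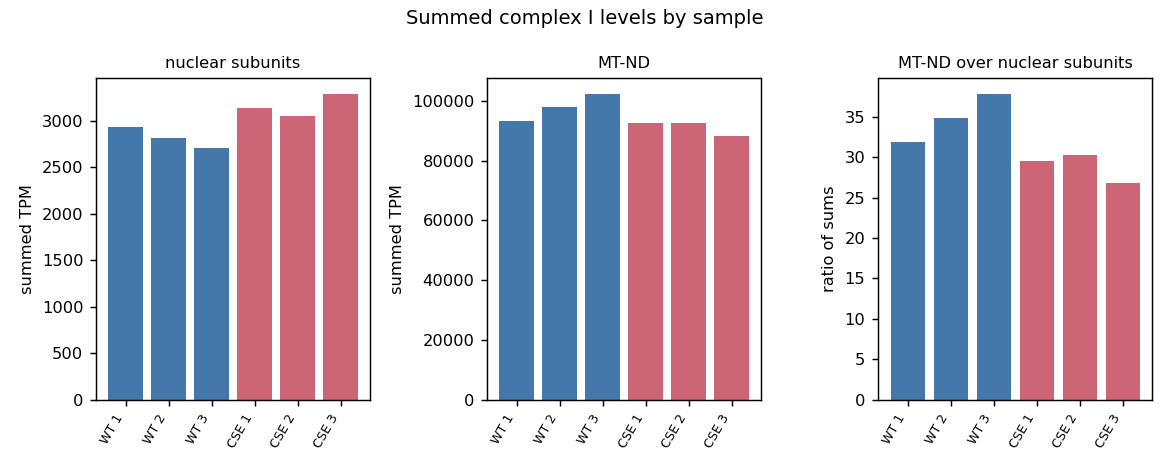
Summed TPM of the 36 nuclear subunits (left), of the 7 MT-ND genes (middle) and the ratio of MT-ND to nuclear subunits (right) in each of the 6 samples, with bars from 0 coloured by group. The CSE bars are higher on the left, slightly lower in the middle, and between 26.8 and 30.3 against 31.9 to 37.8 on the right.

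By module, the NDUFB sum was 1.14-fold higher in CSE, that of NDUFS, NDUFV and NDUFC 1.12-fold, that of NDUFA 1.11-fold and that of NDUFAF 1.03-fold, without overlap in any of them. Rescaled, the first 3 ratios were 1.09, 1.08 and 1.06, while the NDUFAF sum was 0.991 of WT with overlap. Sums weigh the highest genes most, and the order by median log2 fold change was another. That median was 0.19 for NDUFB, 0.17 for NDUFA, 0.06 for NDUFS, NDUFV and NDUFC, and 0.04 for NDUFAF. The 6 nuclear core genes (1.13-fold) and the 30 accessory genes (1.12-fold) had nearly the same ratio. Of these genes 3 of 6 and 17 of 30 rose, beside 24.5% of all genes.

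Levels spanned a wide range although the finished complex holds most subunits in equal number. In WT the nuclear subunits ranged from 1.89 TPM (NDUFA7) to 414 TPM (NDUFS5), a 218-fold spread, with 3 below 10 TPM and 9 at 100 TPM or more. The lowest MT-ND mean was 20.8 times the highest nuclear subunit. The highest and lowest assembly factors were NDUFAF2 at 58.0 TPM and NDUFAF5 at 5.55 TPM. The low values of NDUFA7, NDUFA9 and NDUFC2 beside their partners are levels as listed in the table, and NDUFC2 overlaps a same-strand readthrough gene, NDUFC2-KCTD14, that is listed at 0. NDUFA9 likewise overlaps 2 same-strand gene models listed at 0. NDUFA7 overlaps an unnamed same-strand gene model over 12612 bases, listed at 0.29 TPM in WT and 0.217 TPM in CSE. How reads of such shared stretches were counted is not stated, so the 218-fold spread is one of listed values. Across 43 nuclear members the median transcript length was 761 bases against 1820 for all genes tested. Spearman's rho between log2 fold change and length, across genes that are not independent, was -0.143 for the members and -0.138 for all genes.

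**Figure D5:**
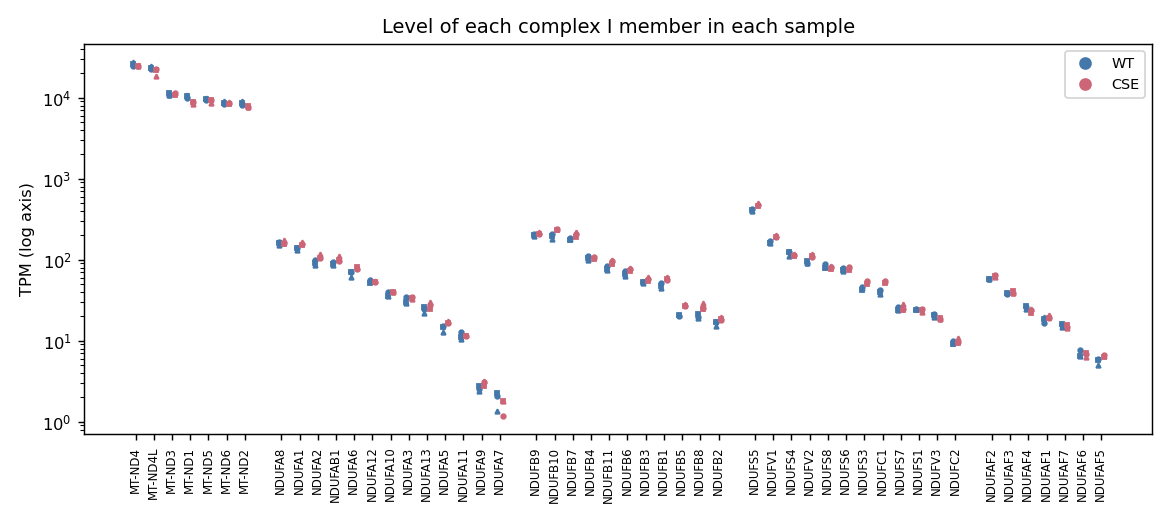
TPM on a log axis of each complex I gene in each of the 6 samples, ordered by WT mean within module and coloured by group. MT-ND genes lie far above all nuclear genes, NDUFS5 is the highest nuclear gene and NDUFA7 the lowest, and WT and CSE points nearly coincide at this scale.

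Other genes of respiration were counted in the same way. Of 39 nuclear subunits of complexes II to V, 26 rose (66.7%, beside 24.5% of all genes) and 2 fell, with a median log2 fold change of 0.17 (rescaled 22, 3 and 0.12). Both medians were close to those of the nuclear complex I subunits, and no test of the difference was run. The largest rise was that of ATP5F1B, the catalytic subunit of ATP synthase, from 855 ± 26.1 to 1157 ± 19.1 TPM (SD, n = 3, log2 fold change 0.44, limma adjusted p = 3.31e-09). The largest fall was that of UQCR11 of complex III, from 47.2 ± 0.245 to 41.7 ± 2.93 TPM (-0.18, limma adjusted p = 0.00526). Of 11 other assembly factors of complex I, 2 rose (18.2%) and 2 fell, shares below the 24.5% and 25.6% of all genes. Rescaled, 1 rose and 3 fell: TMEM126A lost its rise (limma adjusted p = 0.0967) and DMAC2 gained a fall (-0.13, adjusted p = 0.0256). NUBPL, which delivers iron-sulphur clusters to the complex, went from 9.06 ± 0.137 to 11.4 ± 0.602 TPM (0.30, limma adjusted p = 0.000402). TMEM186, of the complex that assembles the membrane arm around MT-ND2, went from 31.9 ± 2.05 to 24.2 ± 1.03 TPM (-0.38, limma adjusted p = 6.01e-06).

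Genes of mitochondrial DNA transcription, replication and RNA handling leaned the other way. Among them were the replication genes POLG, POLG2 and TWNK, which fell, and SSBP1, which rose. Of 27 in all, 5 rose (18.5%) and 12 fell, with a median of -0.10, where 24.5% of all genes rose and 25.6% fell. Rescaled, 4 rose and 14 fell with a median of -0.16, where 18.3% of all genes rose and 35.2% fell. PNPT1, an exoribonuclease of mitochondrial RNA, fell by 0.48 on the log2 scale (limma adjusted p = 2.74e-08), and TWNK, the mitochondrial DNA helicase, by 0.47 (1.54e-08). GRSF1, an RNA-granule protein, had the largest rise (0.22, limma adjusted p = 0.000178). Of 7 tested nuclear regulators of respiratory genes, 3 fell and 2 rose (28.6%), where 25.6% of all genes fell and 24.5% rose. Rescaled, 3 of these regulators fell and none rose, where 35.2% of all genes fell and 18.3% rose. PPARGC1B, a coactivator, went from 9.98 ± 0.133 to 6.43 ± 0.690 TPM (-0.57, limma adjusted p = 1.16e-06), and PPRC1 and YY1 fell by 0.43 and 0.25. GABPA and NRF1, factors that bind many respiratory promoters, rose by 0.18 and 0.17 (limma adjusted p = 0.0138 and 0.0214), and neither call held when rescaled (0.13 and 0.12). PPARGC1A was below 1 TPM in every sample and was not tested. The part of these regulators in the changes of complex I genes was not tested.

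Promoters were read for the nuclear members because they are bound by shared factors in textbook accounts. RefSeq promoters (GRCh38.p14, 250 bases before to 50 after the start, 300 in all) matched 38 of the 43 nuclear members by symbol. They were searched on both strands for 3 motifs, that of NRF1 (a near-palindrome with 1 free base), CCGGAAG of GABPA and AAGATGGCG of YY1, of which the GABPA motif ends as the YY1 motif begins (AAG) and the YY1 motif ends as the NRF1 motif begins (GCG). The stretch before the start of NDUFC1, the member with the largest rise, is printed as one with none of the 3 motifs (chr4:139302552-139302801, minus strand):
NDUFC1: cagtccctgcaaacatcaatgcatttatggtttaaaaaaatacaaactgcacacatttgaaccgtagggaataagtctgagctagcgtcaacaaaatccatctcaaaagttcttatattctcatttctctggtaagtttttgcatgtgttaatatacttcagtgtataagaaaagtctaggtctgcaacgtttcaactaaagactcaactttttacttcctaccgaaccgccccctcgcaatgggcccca
The stretch before NDUFS3, a core subunit that rose, has GABPA matches on both strands in capitals (chr11:47578824-47579073, plus strand):
NDUFS3: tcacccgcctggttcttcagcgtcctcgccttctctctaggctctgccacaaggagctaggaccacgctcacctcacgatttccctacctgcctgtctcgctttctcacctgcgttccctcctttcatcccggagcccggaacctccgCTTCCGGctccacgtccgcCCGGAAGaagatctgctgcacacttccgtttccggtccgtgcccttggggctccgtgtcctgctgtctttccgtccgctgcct
The stretch before NDUFB4, which did not pass, has NRF1 matches in capitals (chr3:120596086-120596335, plus strand):
NDUFB4: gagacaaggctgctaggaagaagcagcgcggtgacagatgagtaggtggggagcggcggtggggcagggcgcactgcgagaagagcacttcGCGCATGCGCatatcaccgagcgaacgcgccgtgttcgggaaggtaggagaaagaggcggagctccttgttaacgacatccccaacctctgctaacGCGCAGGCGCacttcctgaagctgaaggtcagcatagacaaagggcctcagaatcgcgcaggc
Counting the first base of the transcript as 1 and the base before it as -1, the NDUFS3 matches lie at -102 to -96 and -83 to -77. The NDUFB4 matches lie at -159 to -150 and -63 to -54, and 1 more spans the start at -8 to 2.

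The YY1 motif lay after the start in each of the 5 members that held it, and these stretches of 29 bases are printed to show what surrounds the shared letters, which begin at positions 26, 15, 11, 22 and 18 in the order given:
NDUFA6 (chr22:42090729-42090757, minus strand): atgctttggcAAGATGGCGgggagcggcg
NDUFA7 (chr19:8321343-8321371, minus strand): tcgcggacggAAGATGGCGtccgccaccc
NDUFA9 (chr12:4649114-4649142, plus strand): attgtgggaaAAGATGGCGgctgccgcac
NDUFS4 (chr5:53560650-53560678, plus strand): tgcctgcagcAAGATGGCGgcggtgtcaa
NDUFS7 (chr19:1383914-1383942, plus strand): ggccgaggccAAGATGGCGgtgctgtcag
The motif is in capitals. Of these 5 genes NDUFA6 rose, and NDUFA7, NDUFA9, NDUFS4 and NDUFS7 did not pass on TPM as deposited.

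Of the 38 promoters, 7 held the NRF1 motif (18.4%, against 6.28% of all 27305 promoters), 6 the GABPA motif (15.8% against 10.7%) and 5 the YY1 motif (13.2% against 1.85%). At least 1 of the 3 was found in 17 (44.7% against 17.0%). Among 20 promoters of members that rose, 1 held the NRF1 motif (that of NDUFAF5), 4 the GABPA motif (NDUFA1, NDUFA13, NDUFB7 and NDUFS3) and 1 the YY1 motif. Among 16 promoters of members that did not pass, 6 held the NRF1 motif (NDUFA3, NDUFA8, NDUFA9, NDUFA11, NDUFA12 and NDUFB4), 1 the GABPA motif (NDUFS1) and 4 the YY1 motif. These are matches of letters in a short window and do not show that a factor was bound.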

How the data were processed

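Poly(A)-selecting mRNA-seq libraries of 6 HCT116 samples were sequenced on Illumina chemistry, per the labels' protocols. HISAT2 2.0, Trimmomatic 0.36, FastQC 0.11.2 and bedtools 2.26.0 appear in the submitters' processing notes, with GRCh38 as the build. No source used here states the counter, annotation or strandedness. A single TPM table of 20263 genes and 6 sample columns was deposited by the authors, and since every column has the same total, depth is unknown and no counting interval was computed.

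Symbols were matched from Ensembl IDs (20148 of 20263), and positions come from GENCODE 29 on GRCh38, which need not be the authors' annotation. A gene entered the fit where 3 or more libraries had 1 TPM or more (12793 genes). These were fitted with limma 3.58.1 in R 4.3.3 on log2(TPM + 1), with an empirical Bayes mean-variance trend, no covariate, and Benjamini-Hochberg adjustment at 0.05 over all of them. The scale understates changes of low genes. The procedure was tested on simulated data.

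The members and gene lists were chosen with earlier results of these data known. The rule for names took every MT-ND gene, the 3 called members with the highest and the 3 with the lowest log2 fold change in each nuclear series, those whose call changed on rescaling, the highest and lowest by level, and the extreme called genes of each list; other members are named with fewer values. The alternatives changed the pseudocount (0.1), the filter (none, or a mean of 5 TPM), the scaling (rescaling, median of ratios, quantiles) or the variance prior (without trend, or robust), added a replicate block, or dropped 1 sample.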

Additional observations from a re-analysis of the deposited data

How the results depend on the processing

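Of the 22 nuclear members that rose, 16 kept the call under all 15 alternatives, as did the fall of MT-ND1 (log2 fold change between -0.32 and -0.19). The other falls did not. MT-ND members that fell numbered 3, and 1 with no filter, median-of-ratios scaling, the prior without trend or the replicate block, 5 when rescaled, and 1 to 3 with 1 sample left out (1 without WT replicate 3). Under quantile normalization 2 MT-ND members were higher and the MT-ND median was 0, since that method gives the top ranks fixed values. The rescaled MT-ND median was -0.14. NDUFS/V/C members that fell, and with them nuclear subunits, numbered 1, and 0 with no filter, 2 rescaled, and 0 to 2 with 1 sample left out (0 without WT replicate 1, WT replicate 2 or CSE replicate 1, 2 without WT replicate 3). NDUFAF members that rose numbered 2, and 1 with no filter or the prior without trend, 0 rescaled, and 0 to 2 with 1 sample left out (0 without WT replicate 3 or CSE replicate 1). The 1 NDUFAF member that fell was 0 with no filter, median-of-ratios scaling, quantile normalization, the prior without trend or the replicate block, and 0 or 1 with 1 sample left out. The NDUFAF median turned to -0.019 when rescaled. The cause of these shifts was not tested.

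Log2 fold changes that changed sign were these. Rescaled they were -0.031 for NDUFA8, -0.040 for NDUFA11, -0.031 for NDUFB4, -0.013 for NDUFS7, -0.019 for NDUFAF3, -0.038 for MT-ND3 and -0.052 for MT-ND6. Under quantile normalization they were -0.026 for NDUFA8, -0.021 for NDUFB4 and 0.065 for MT-ND5 (limma adjusted p = 0.0248). With 1 sample left out in turn, 8 members took either sign: NDUFA8 lay between -0.021 and 0.060, NDUFA11 between -0.037 and 0.090, NDUFB4 between -0.018 and 0.065 and NDUFC2 between -0.0080 and 0.0998. NDUFS7 lay between -0.032 and 0.089, NDUFS8 between -0.074 and 0.019, NDUFAF6 between -0.071 and 0.037 and MT-ND6 between -0.026 and 0.037. Of the 748 comparisons of a single gene with an alternative, 656 kept direction and side of the threshold, 59 lost the call, 11 gained one and 22 changed sign.

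With the replicate number as a block, 6537 genes were called against 6407, 19 nuclear subunits rose against 20, and 1 MT-ND gene fell against 3. No sign was seen that the numbers pair the samples. Deviations from the group means of same-numbered samples correlated at -0.071, 0.015 and -0.088 across genes. Those of differently numbered samples correlated at between -0.089 and 0.123. Deviations within groups of 3 constrain each other, so these correlations cannot settle whether samples were paired. Depth is unknown from TPM, so the precision of low members such as NDUFA7 rests on 3 samples a group and on the variance prior fitted over all genes.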
